A study of Arabidopsis thaliana with 8 samples.

Results

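Endosperm transcripts of Arabidopsis seeds whose parents both carried ein2-5 (ein2-5 x ein2-5, here ein2-5 selfs) were compared with those of seeds whose parents were both Col-0, the wild type (Col-0 x Col-0, here Col-0 selfs). The comparison holds 4 of the 8 libraries of the series and 2 of its 4 crosses, with 2 libraries each, chosen by the labelled genotype and by no measured value. The hybrid crosses are Col-0 x ein2-5, here hybrids on Col-0, and ein2-5 x Col-0, here hybrids on ein2-5, with the parent named first taken as the mother because the labels leave this unsaid. The 4 hybrid libraries entered the estimate of spread between replicates and are given where they help to place a value. Flowers were emasculated 44 to 48 h before pollen was applied in all crosses, plants grew in long days, and laser capture was used to cut out endosperm 6 days after pollination (DAP). The series is titled for an effect of EIN2 on cellularization of the endosperm and on the size of seeds, and this comparison asks what differs in the endosperm when both parents lack a working EIN2.

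EIN2 is a membrane protein through which every branch of the ethylene signal passes. Without ethylene, receptors in the endoplasmic reticulum keep the kinase CTR1 active, and CTR1 holds EIN2 back by phosphorylation. With ethylene, the C-terminal part of EIN2 is released, the transcription factors EIN3 and EIL1 are stabilised, and ERF genes are switched on. ein2-5 is a loss-of-function allele, and plants that carry it are insensitive to ethylene. The endosperm is the seed tissue that feeds the embryo. It first divides its nuclei without walls and then cellularizes, and it lies inside a seed coat that is formed by the mother alone. In ein2-5 selfs the seed coat, the endosperm and the embryo were therefore all mutant, and in Col-0 selfs all were wild type.

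Values are FPKM (fragments per kilobase of transcript scaled to the size of the library) as deposited. Differences are on the log2(FPKM + 1) scale, ein2-5 selfs minus Col-0 selfs, with the standard error (SE) of the model, and they understate the change of genes near 1 FPKM. All p-values are from limma with n = 2 libraries per cross, and adjusted ones use the Benjamini-Hochberg method over all 19719 tested genes. Each p-value sets a difference against the spread between replicates, estimated over all 8 libraries. The labels do not say whether the 2 libraries of a cross came from separate plants, so this may not be a spread between plants. In bulk tissue of this kind, fewer cells of a type and less RNA per cell cannot be told apart.

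The 4 libraries listed between 18170 and 20951 genes above 0, and their depth in fragments is unknown. Across genes the ein2-5 self replicates correlated at 0.95 (Pearson r of log2 values), the Col-0 self replicates at 0.94, and libraries of different selfed crosses at 0.92 to 0.95. Col-0 self replicate 1 stood apart, with the fewest genes above 0, 2.42% of its FPKM in its 10 highest genes against 1.33% to 1.75% in the other 7 libraries, and a median tested gene at 3.93 log2 units against 4.08 to 4.37. At the other end, ein2-5 self replicate 2 had the most genes above 0 (20951) and the highest median (4.37).

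Genes listed as markers of the endosperm and genes listed as markers of its neighbours were both found in the tissue. Endosperm markers, 16 genes such as PHE1, ZOU and FWA, summed to 1499 and 1181 FPKM in ein2-5 selfs, to 1009 to 1189 in the hybrid crosses, and to 1152 and 941 in Col-0 selfs. Embryo markers, 18 genes such as the WOX genes and LEC1, summed to 585 and 588 FPKM in ein2-5 selfs, to 640 to 682 in the hybrids, and to 655 and 658 in Col-0 selfs. LEC1 was the largest part of that sum. Without LEC1, a choice made after seeing the data, the sums of the selfed crosses overlapped. Seed coat markers, 18 genes matched of 19, mostly of the tannin pathway, summed to 1756 and 1172 FPKM in ein2-5 selfs, to 625 to 1139 in the hybrids, and to 803 and 721 in Col-0 selfs. No marker of the 3 lists was at 0 in all 4 selfed libraries. Seed coat markers were therefore present in every library and lay above Col-0 selfs in both libraries of ein2-5 selfs, without overlap. Of the 18 tested seed coat markers, 16 were higher and 14 had an unadjusted p under 0.05, with a median difference of 1.02. As deposited, 61.6% of all tested genes were higher, and 8.44% were higher at that p. The 14 became 4 without ein2-5 self replicate 1, 4 without Col-0 self replicate 1 and 8 without Col-0 self replicate 2. Of the 14 tested endosperm markers, 12 were higher and 7 had an unadjusted p under 0.05, with a median of 0.65, and their sums did not overlap either. These 7 became 3 without ein2-5 self replicate 1. Of the 15 tested embryo markers, 5 were higher, 1 of them with an unadjusted p under 0.05, and 0 were lower at that p. Their median difference was -0.19, but 0.26 without ein2-5 self replicate 1 and -0.002 without Col-0 self replicate 1. It was -0.35 without ein2-5 self replicate 2 and -0.13 without Col-0 self replicate 2, so its direction depended on single libraries. The part of seed coat tissue in the results below was not tested.

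**Figure D1:**
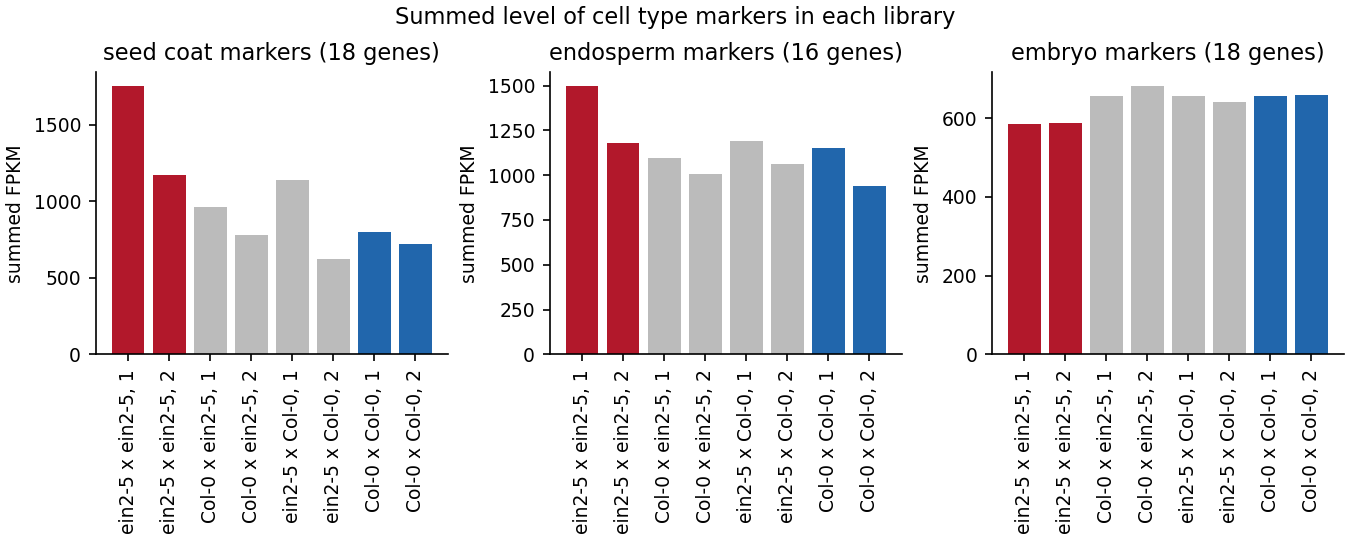
Summed FPKM of seed coat, endosperm and embryo markers in each of the 8 libraries (red, ein2-5 x ein2-5; grey, hybrid crosses; blue, Col-0 x Col-0; 1 bar per library, no error bars). The seed coat sum was 1756 and 1172 FPKM in ein2-5 selfs and 803 and 721 in Col-0 selfs, while the embryo sum was 585 and 588 in ein2-5 selfs, against 655 and 658 in Col-0 selfs. LEC1 is the largest part of the embryo sum, and without it the selfed crosses overlapped.

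EIN2 itself was still transcribed in the mutant. It measured 19.7 and 23.7 FPKM in ein2-5 selfs, 31.4 and 50.03 in hybrids on Col-0, 26.2 and 22.2 in hybrids on ein2-5, and 35.7 and 54.9 in Col-0 selfs. The 2 selfed crosses did not overlap. The difference was -1.005 ± 0.28 (SE) and did not pass over all genes (adjusted p = 0.35). The FPKM of a whole gene does not show the mutation, so this level alone is no check of the genotype.

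Over the whole transcriptome, few differences between the selfed crosses stood out from the spread between replicates. Of 19719 tested genes 2 were called at an adjusted p under 0.05, which is 0.0101% of those tested. Leaving out 1 library moved the number of calls: 0 without ein2-5 self replicate 1 or 2, 2 other genes without Col-0 self replicate 1, and 33 genes without Col-0 self replicate 2. Before adjustment, 1665 genes (8.44%) were higher and 421 (2.13%) were lower in ein2-5 selfs at a p under 0.05. The means of the crosses were 2-fold apart for 1790 genes. Single replicates were 2-fold apart for 2231 genes in ein2-5 selfs and for 2930 in Col-0 selfs. Single libraries vary more than means of 2, so these counts cannot be set against each other directly. The balance of directions depended on scaling: genes with an unadjusted p under 0.05 were higher in 79.8% of cases with FPKM as deposited, in 58.3% after median-ratio scaling and in 48.5% after quantile normalization. The median difference of all genes was 0.12 as deposited, 0.02 after median-ratio scaling and -0.03 after quantile normalization, and the differences below are to be read relative to it.

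Both ein2-5 self libraries were above both libraries of Col-0 selfs for 5407 genes (27.4%) and below them for 2042 genes (10.4%). These shares are the background for the gene groups described below. The direction also went with the level of a gene. The median difference was 0.22 for genes with a mean under 5 FPKM, 0.19 between 5 and 20, 0.12 between 20 and 100, and -0.09 at 100 or more. Among the 2537 genes of the highest band 34.7% were higher, with 96 higher and 152 lower at an unadjusted p under 0.05.

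**Figure D2:**
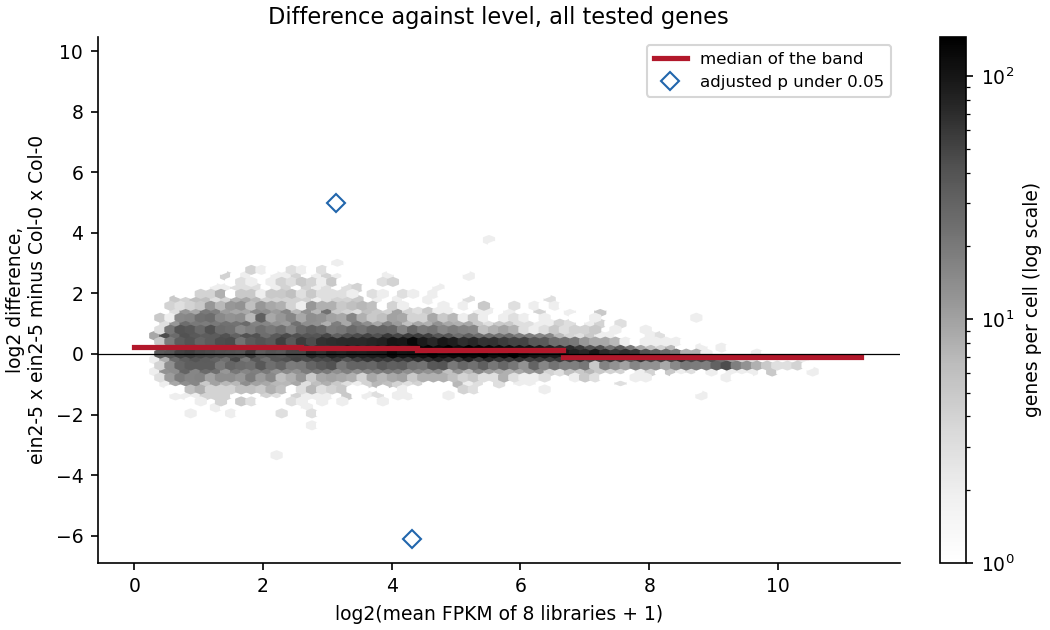
Log2 difference of each of the 19719 tested genes, ein2-5 x ein2-5 minus Col-0 x Col-0 (vertical axis), against log2 of its mean FPKM + 1 over 8 libraries (horizontal axis), shaded by the number of genes on a log scale. Red lines give the median of 4 bands of level, 0.22 at the low end and -0.09 at the high end, and the 2 open diamonds are the genes called.

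Both called genes have short transcripts and were listed above 0 in only 1 cross. AT1G69825, a defensin-like gene of 222 nt, was listed at 38.3 and 24.3 FPKM in ein2-5 selfs and at 0 in the 6 other libraries (adjusted p = 0.034). AT4G36791, an uncharacterized gene of 207 nt, was listed at 0 in ein2-5 selfs and in the hybrids and at 109 and 42.0 FPKM in Col-0 selfs (adjusted p = 0.034). AT4G36791 overlaps AT4G36795 on the other strand, and the labels do not state whether strand was kept.

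The pattern of these 2 genes recurred in part in other genes, most of them with short transcripts. Of the 19719 tested genes, some were under 1 FPKM in both libraries of one selfed cross and at 10 FPKM or more in both of the other. They were 11 genes in ein2-5 selfs, 8 of them under 500 nt, and 4 genes in Col-0 selfs, all 4 under 500 nt. Among all 19559 tested genes with a known transcript length, 536 were under 500 nt. The 11 include AAP8, a gene of 1615 nt that was above 0 in all 4 hybrid libraries. The highest of the 11 was AT1G35183, a RING finger gene, at 987 and 682 FPKM in ein2-5 selfs and 0 in both libraries of Col-0 selfs. It was, however, at 997 in 1 library of the hybrids on Col-0 and 0 in the other 3 hybrids. AT2G11891 was listed at 289 and 190 FPKM in ein2-5 selfs, AT1G21286 at 89.5 and 57.3, and AT2G34120 at 48.1 and 30.6, all 3 at 0 in Col-0 selfs and in 3 of the 4 hybrids. The cysteine-rich LCR61 (55.1 and 52.2 FPKM) and AT2G03955 (29.3 and 37.0), and AT4G39404, a non-coding RNA (27.6 and 34.6), were likewise above 0 in both libraries of ein2-5 selfs, at 0 in both of Col-0 selfs and above 0 in 1 hybrid. In Col-0 selfs, AT3G43572 (92.3 and 35.4 FPKM), AT4G08028 (44.1 and 16.9) and the microRNA precursor MIR853 (43.3 and 16.6) were listed at 0 in both libraries of ein2-5 selfs.

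All 4 such genes in Col-0 selfs, AT4G36791 included, had a ratio of replicate 1 to replicate 2 of 2.61. Across the 17742 genes above 0 in both libraries of Col-0 selfs the commonest ratios were 1.3 in 660 genes, 0.87 in 642, 2.61 in 577 and 0.65 in 469, rounded to 2 decimals. The 3 other ratios are 2.61 divided by 2, 3 and 4. In ein2-5 selfs the commonest ratios were 0.8 in 771 of 18891 genes, 1.6 in 698 and 1.07 in 453, and AT1G69825 was at 1.58. The 11 genes of ein2-5 selfs had ratios from 0.79 to 1.58, and most lay near one of these common ratios. AT1G21286 (1.56) lay near 1.6, AT2G03955 (0.79) and AT4G39404 (0.80) near 0.8, and LCR61 (1.055) near 1.07, while AT1G35183 was at 1.45. How many fragments lie behind the 2 called genes is unknown.

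The genes with the smallest p among those at 10 FPKM or more did not pass the adjusted threshold apart from these 2. AT5G58412, a putative membrane lipoprotein gene, came closest on the higher side, at 27.5 and 17.4 FPKM in ein2-5 selfs and 0 in the other 6 libraries (adjusted p = 0.051). SYTA, a synaptotagmin that works at membrane contact sites, came closest on the lower side, at 49.5 and 55.5 FPKM in ein2-5 selfs, 88.4 and 96.3 in hybrids on Col-0, 79.1 and 77.2 in hybrids on ein2-5, and 118 and 128 in Col-0 selfs. All 4 hybrid libraries of SYTA lay between the selfed crosses, which picking genes by the difference between those crosses makes more likely. Its difference was -1.22 ± 0.13 (adjusted p = 0.083), and it was called after median-ratio scaling (adjusted p = 0.033) and quantile normalization (0.034).

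GLP5, a germin-like protein of the cell wall, had 68.7 and 66.5 FPKM in ein2-5 selfs and 23.8 and 22.4 in Col-0 selfs (1.51 ± 0.21, adjusted p = 0.24). GA20OX5, a gibberellin 20-oxidase, had 68.6 and 36.8 FPKM in ein2-5 selfs and 8.29 and 10.2 in Col-0 selfs (2.33 ± 0.34, adjusted p = 0.24). ESF1.2, for a cysteine-rich peptide secreted by endosperm next to the embryo, had 307 and 221 FPKM in ein2-5 selfs and 83.5 and 80.2 in Col-0 selfs (1.66 ± 0.27, adjusted p = 0.30), with close paralogs that may share its reads. For GLP5, GA20OX5 and ESF1.2 all 4 hybrid libraries lay between the selfed crosses, as they did for 7 of the 12 higher genes. These genes were picked for their difference between the selfed crosses, which makes such a position more likely. Its share over all genes was not counted, so no dependence on the number of mutant parents can be read from it. KCS3, of the family that elongates very long fatty acids, had 48.4 and 50.4 FPKM in ein2-5 selfs and 14.7 and 14.3 in Col-0 selfs. The zinc-finger gene ZF2 had 65.7 and 45.6 FPKM in ein2-5 selfs and 11.02 and 13.4 in Col-0 selfs. AT2G35736, of unknown function, had 245 and 291 FPKM in ein2-5 selfs and 15.9 and 26.5 in Col-0 selfs, but 437, 374, 63.6 and 259 in the hybrids, so that some hybrids lay above both selfed crosses. The others on the higher side were AT3G07270, a GTP cyclohydrolase I gene (1.28), AT3G28990, of unknown function (1.74), the cytochrome P450 AT2G12190 (1.93) and the MYB-family gene AT5G41020 (0.84), with adjusted p-values of 0.24 to 0.30.

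On the lower side, AT1G71250, a GDSL-type lipase gene, had 232 and 253 FPKM in ein2-5 selfs and 381 and 420 in Col-0 selfs (-0.72 ± 0.13, adjusted p = 0.31). OLEO2, a coat protein of oil bodies, had 15.2 and 18.24 FPKM in ein2-5 selfs and 38.3 and 36.8 in Col-0 selfs (-1.12 ± 0.21, adjusted p = 0.31). ENODL10, an early nodulin-like protein, had 372 and 408 FPKM in ein2-5 selfs and 779 and 580 in Col-0 selfs, and NF-YC12, a subunit of the NF-Y transcription factor, had 135 and 151 FPKM in ein2-5 selfs, against 210 and 217 in Col-0 selfs. In each of these 4 genes the 2 crosses did not overlap. The rest of this side were AT4G10270 (-1.19), annotated as wound-responsive, AT1G78190 (-0.88), AT4G27450 (-0.81), AT5G56120 (-0.79), AT3G15395 (-0.72) and SMAP1, a small acidic protein (-0.61), with adjusted p-values of 0.32 to 0.33. All 4 hybrid libraries lay between the selfed crosses for 6 of the 12 lower genes, which were picked in the same way, so the same limit holds.

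**Figure D3:**
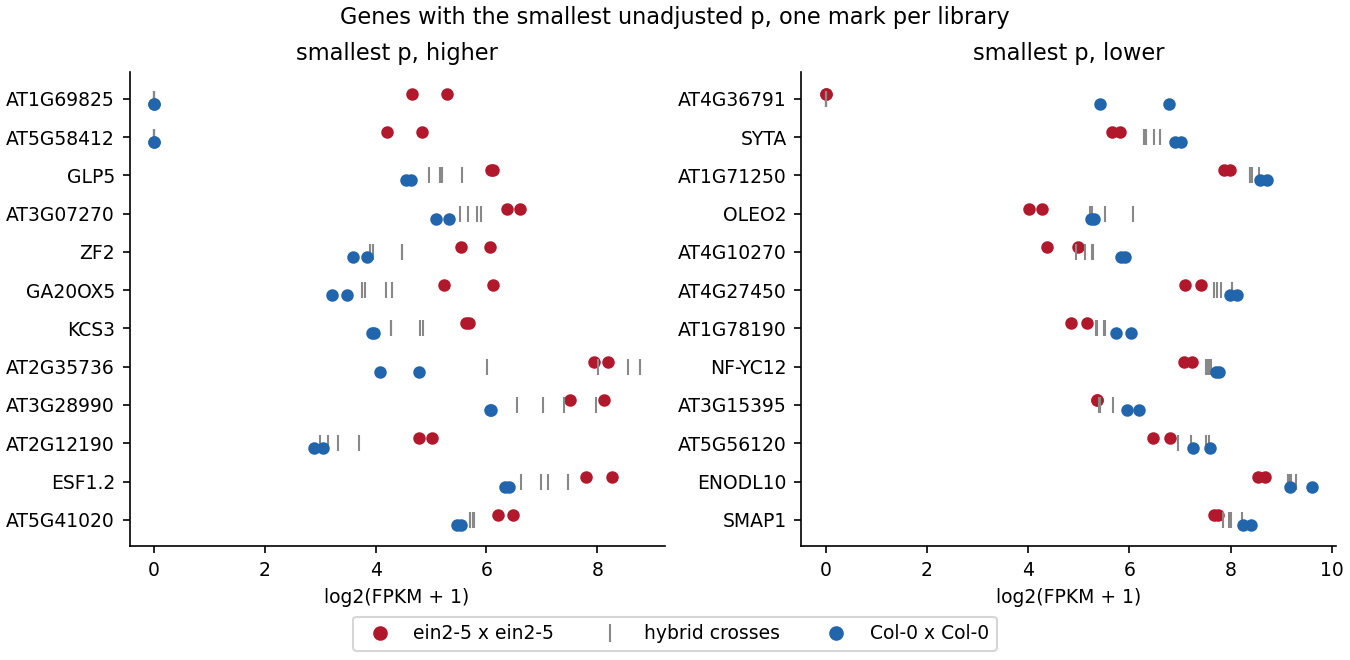
Level of the 12 genes per direction with the smallest unadjusted p, as log2(FPKM + 1), 1 mark per library (red dots, ein2-5 x ein2-5; grey ticks, hybrid crosses; blue dots, Col-0 x Col-0). SYTA stood at 49.5 and 55.5 FPKM in ein2-5 selfs and 118 and 128 in Col-0 selfs, with its 4 hybrid libraries in between.

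In the list of perception and signalling genes all 16 members were tested, and 3 lay above Col-0 selfs and 4 below without overlap. EIN2 was the 1 member with an unadjusted p under 0.05. Without ein2-5 self replicate 1 this became 0 members, and without ein2-5 self replicate 2 or Col-0 self replicate 1 it became 3 and 2 members, all lower. Without Col-0 self replicate 2 it became 2 members, both higher. Among the receptors, EIN4 measured 4.11 and 5.13 FPKM in ein2-5 selfs and 1.66 and 3.40 in Col-0 selfs (0.71 ± 0.41). ERS2 measured 35.4 and 37.8 in ein2-5 selfs, against 33.0 and 34.3 in Col-0 selfs (0.12). The receptors ETR2, ERS1 and ETR1 overlapped, with differences of -0.54, -0.37 and 0.18, so the receptors did not go one way. ETP2, an F-box protein that targets EIN2 for degradation, was the third member above. EBF2, the F-box protein that removes EIN3 and is itself a target of EIN3, measured 27.9 and 37.7 FPKM in ein2-5 selfs and 48.1 and 41.2 in Col-0 selfs (-0.44 ± 0.21, adjusted p = 0.50). RTE1, which acts with the receptor ETR1, was the most abundant member, at 131 and 153 FPKM in ein2-5 selfs and 157 and 180 in Col-0 selfs. RAN1, the copper transporter that supplies the receptors, was the fourth member below. CTR1 overlapped, at 28.8 and 33.9 FPKM in ein2-5 selfs and 27.7 and 32.8 in Col-0 selfs.

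Of 15 ethylene-responsive transcription factors 11 were tested, and 3 lay above and 1 (ESE3) below without overlap. TEM1, of the RAV family, measured 5.75 and 5.39 FPKM in ein2-5 selfs and 2.71 and 0.52 in Col-0 selfs (1.47 ± 0.61, adjusted p = 0.46). RAV1 measured 2.43 and 1.14 FPKM in ein2-5 selfs and 0 and 0.44 in Col-0 selfs. ERF4, a repressor of the ERF family, measured 38.5 and 47.0 FPKM in ein2-5 selfs and 32.1 and 32.4 in Col-0 selfs (0.39 ± 0.18). ERF11, the most abundant, overlapped at 81.3 and 84.4 FPKM in ein2-5 selfs and 89.1 and 39.0 in Col-0 selfs. Without Col-0 self replicate 2 the median of the list, 0.39 with all libraries, was 0.

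Of 15 ethylene synthesis genes 10 were tested, and 0 had an unadjusted p under 0.05, against 2 higher without ein2-5 self replicate 1. ACS2, an ACC synthase, was the 1 member without overlap, at 1.63 and 5.08 FPKM in ein2-5 selfs and 0 and 0.79 in Col-0 selfs. ACS7, another ACC synthase, was above 0.5 FPKM in only 1 of the 4 libraries. EOL1, which marks ACC synthases for degradation, measured 23.3 and 21.9 FPKM in ein2-5 selfs and 17.9 and 29.3 in Col-0 selfs.

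Flavonoid and tannin genes were, of the 29 lists, the one with the largest share of members above Col-0 selfs. They make and carry the precursors of the brown proanthocyanidins of the inner seed coat. All 17 were tested, 14 lay above Col-0 selfs without overlap and 0 below, and 11 had an unadjusted p under 0.05, with a median difference of 0.83. The 11 became 4 without ein2-5 self replicate 1, 5 (and 1 lower) without Col-0 self replicate 1 and 6 without Col-0 self replicate 2, with medians of 0.58 to 1.11 over the left-out libraries. Higher values ran along most of the pathway. At its entry, the phenylalanine ammonia-lyases PAL1 and PAL2 differed by 0.60 and 0.06, and TT4, chalcone synthase, measured 447 and 268 FPKM in ein2-5 selfs and 256 and 166 in Col-0 selfs (0.74 ± 0.41, adjusted p = 0.57). TT5, chalcone isomerase, measured 65.2 and 34.9 FPKM in ein2-5 selfs and 13.2 and 18.6 in Col-0 selfs (1.55 ± 0.40, adjusted p = 0.33). Further along, TT3, dihydroflavonol reductase, measured 198 and 140 FPKM in ein2-5 selfs and 86.0 and 78.1 in Col-0 selfs (1.01 ± 0.24, adjusted p = 0.33), and LDOX, the dioxygenase of the next step, measured 237 and 171 in ein2-5 selfs, against 98.4 and 94.1 in Col-0 selfs (1.06 ± 0.28, adjusted p = 0.33). Replicate 1 of ein2-5 selfs was the higher of its pair in each of TT4, TT5, TT3 and LDOX.

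Both this list and the next share genes with the seed coat markers, which summed to 1756 and 1172 FPKM in ein2-5 selfs and 803 and 721 in Col-0 selfs. The regulators of the seed coat lay on the same side at lower levels. All 10 were tested, 8 lay above without overlap and 0 below, and 6 had an unadjusted p under 0.05, with a median of 1.02. None of the 10 had an unadjusted p under 0.05 without ein2-5 self replicate 1, 2 had one without Col-0 self replicate 1 and 3 without Col-0 self replicate 2, with medians of 0.76 to 1.14. TT2, the MYB factor of the complex that switches on tannin genes, measured 17.58 and 8.92 FPKM in ein2-5 selfs and 0 and 3.98 in Col-0 selfs (adjusted p = 0.39). The zinc-finger factor TT1 measured 13.9 and 7.51 FPKM in ein2-5 selfs and 1.75 and 4.69 in Col-0 selfs, and the MADS-box factor TT16 measured 15.6 and 7.78 in ein2-5 selfs, against 2.36 and 5.74 in Col-0 selfs. TTG1, the WD40 partner of TT2, was the most abundant and overlapped, at 53.7 and 56.6 FPKM in ein2-5 selfs and 49.8 and 59.6 in Col-0 selfs, and its difference of 0.02 turned to -0.09 after median-ratio scaling and -0.10 after quantile normalization.

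Mucilage genes act in the outer layer of the seed coat. All 9 were tested, and in this as in other short lists the shares are coarse. Without overlap 1 gene (11.1%) lay above and 0 below, against 27.4% and 10.4% of all genes. That gene was MUM2, a beta-galactosidase, at 12.8 and 12.9 FPKM in ein2-5 selfs and 6.51 and 6.50 in Col-0 selfs (0.88 ± 0.32, adjusted p = 0.42). GATL5 measured 19.0 and 22.1 FPKM in ein2-5 selfs and 21.9 and 24.5 in Col-0 selfs, SOS5 measured 11.7 and 17.2 in ein2-5 selfs, against 15.5 and 8.95 in Col-0 selfs, and IRX14, the most abundant, measured 24.6 and 27.4 in ein2-5 selfs, against 23.61 and 25.1 in Col-0 selfs. The median of the list was 0.09, but -0.01 and -0.08 under the 2 scalings, -0.04 without Col-0 self replicate 1 and -0.02 without ein2-5 self replicate 2.

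Genes of the cuticle and of surface lipids formed a further group above Col-0 selfs. Of 19 members 16 were tested, 11 of them lay above without overlap and 0 below, and 5 had an unadjusted p under 0.05, with a median of 0.79. GPAT4, an acyltransferase of cutin synthesis, measured 20.1 and 21.3 FPKM in ein2-5 selfs and 6.63 and 6.18 in Col-0 selfs (1.55 ± 0.27, adjusted p = 0.30). FDH, a ketoacyl-CoA synthase of the epidermis, measured 92.2 and 76.0 FPKM in ein2-5 selfs and 39.2 and 38.9 in Col-0 selfs (1.08 ± 0.20, adjusted p = 0.31). LTP2, a lipid transfer protein, measured 74.0 and 123 FPKM in ein2-5 selfs and 41.9 and 34.8 in Col-0 selfs, with the hybrids between 59.0 and 146. CYP86A2, a fatty acid hydroxylase, was the most abundant at 139 and 115 FPKM in ein2-5 selfs and 75.4 and 64.8 in Col-0 selfs. ATML1, a homeodomain factor of epidermal identity, belongs to the list of embryo genes and not to this one. It measured 32.3 and 30.2 FPKM in ein2-5 selfs and 9.78 and 13.6 in Col-0 selfs (1.36 ± 0.29, adjusted p = 0.32). Of the 17 tested genes of that list 6 were higher and 11 lower, with a median of -0.20. ATML1 was the 1 among them with an unadjusted p under 0.05. The seed coat marker sum was also higher, at 1756 and 1172 FPKM in ein2-5 selfs and 803 and 721 in Col-0 selfs. The part of seed coat tissue in the difference of the cuticle genes was not tested.

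**Figure D4:**
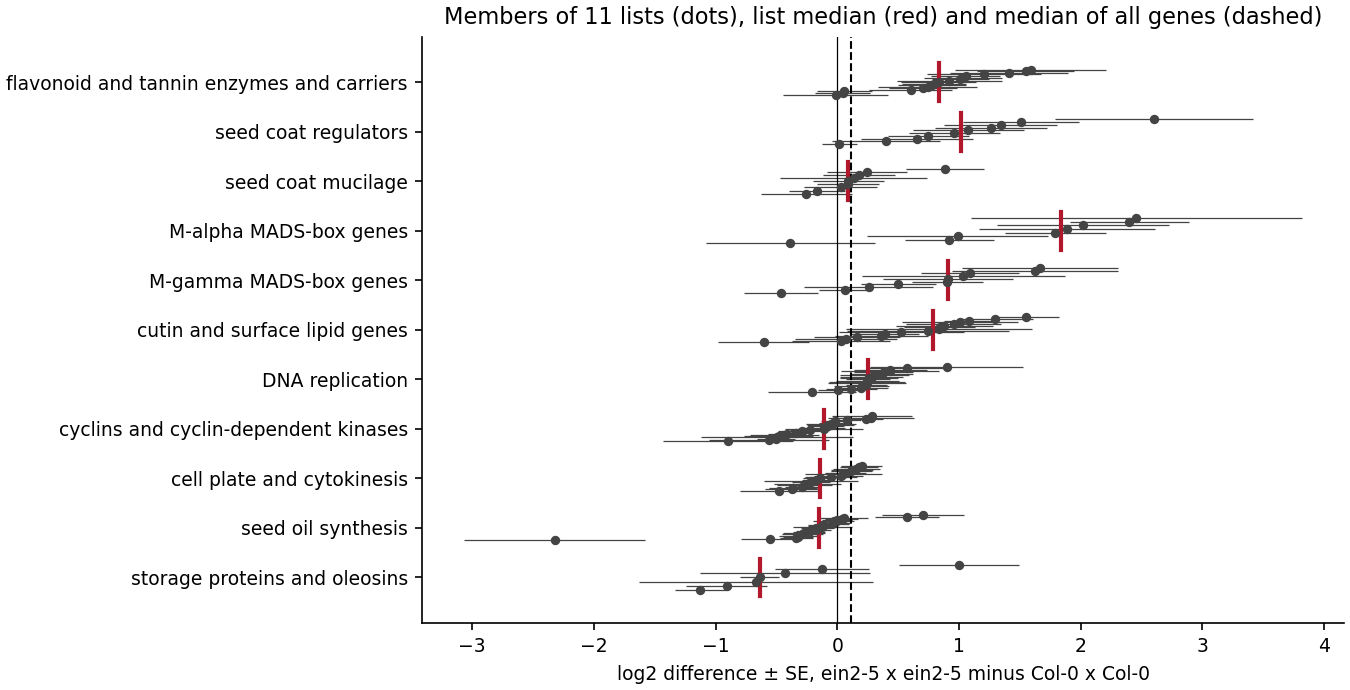
Log2 difference (horizontal axis, ein2-5 x ein2-5 minus Col-0 x Col-0) of each tested member of 11 gene lists (dots; bars are ± 1 SE of the model), with the list median in red and the median of all genes, 0.12, dashed. Tannin genes and their regulators, both classes of MADS-box genes and cuticle genes have medians of 0.79 to 1.84, while oleosins and oil synthesis genes have medians of -0.64 and -0.15.

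Type I MADS-box genes are transcription factors of the central cell and early endosperm. PHE1 and AGL62 are also among the endosperm markers, which summed to 1499 and 1181 FPKM in ein2-5 selfs and 1152 and 941 in Col-0 selfs. In the M-alpha class 8 of 11 matched members were tested, 6 lay above without overlap and 1 (AGL29) below, with a median of 1.84. AGL28 measured 37.4 and 32.2 FPKM in ein2-5 selfs, 11.02 and 4.16 in hybrids on Col-0, 12.95 and 5.33 in hybrids on ein2-5, and 5.89 and 5.65 in Col-0 selfs (2.399 ± 0.49, adjusted p = 0.32). AGL23 measured 27.1 and 18.0 FPKM in ein2-5 selfs and 3.41 and 9.15 in Col-0 selfs (1.79 ± 0.41, adjusted p = 0.33). AGL62, which holds back cellularization, measured 23.5 and 7.92 FPKM in ein2-5 selfs and 3.42 and 2.62 in Col-0 selfs and was named after its values were seen. AGL91 was the most abundant at 111 and 91.0 FPKM in ein2-5 selfs and 79.9 and 34.5 in Col-0 selfs, and AGL57 was listed at 6.19 and 1.29 FPKM in ein2-5 selfs and at 0 in both libraries of Col-0 selfs.

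In the M-gamma class 10 of 13 matched members were tested, 5 lay above without overlap and 0 below, with a median of 0.91. PHE1, an imprinted gene read from the paternal allele, measured 287 and 203 FPKM in ein2-5 selfs and 174 and 94.8 in Col-0 selfs (0.90 ± 0.29, adjusted p = 0.39). Its close paralog PHE2 measured 231 and 174 FPKM in ein2-5 selfs and 149 and 58.3 in Col-0 selfs, and reads may have been split between the 2 copies. AGL48 was listed at 3.68 and 1.15 FPKM in ein2-5 selfs and at 0 in both libraries of Col-0 selfs. AGL87, the most abundant, overlapped at 406 and 313 FPKM in ein2-5 selfs and 414 and 282 in Col-0 selfs, and its difference of 0.06 turned to -0.05 after median-ratio scaling. Without ein2-5 self replicate 1 the class had a median of 0.39, and the M-alpha class 1.18.

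Among 20 PRC2 and imprinted genes, all tested, 10 lay above without overlap and 3 (ADM, FIE and MSI1) below, and 6 had an unadjusted p under 0.05, all higher. The 6 became 1 without ein2-5 self replicate 1, and 1 lower member appeared without ein2-5 self replicate 2. FWA, read from the maternal allele, measured 72.5 and 52.9 FPKM in ein2-5 selfs and 33.3 and 28.3 in Col-0 selfs (0.99 ± 0.24, adjusted p = 0.33). HDG8, a homeodomain factor, measured 126 and 111 FPKM in ein2-5 selfs and 69.2 and 37.7 in Col-0 selfs. MEA, the histone methyltransferase of the endosperm PRC2 complex, measured 12.7 and 5.45 FPKM in ein2-5 selfs and 1.495 and 1.72 in Col-0 selfs (1.85 ± 0.57, adjusted p = 0.39). The subunits of the complex did not go one way: FIE measured 121 and 127 FPKM in ein2-5 selfs and 131 and 134 in Col-0 selfs. HDG3, the most abundant, overlapped at 357 and 230 FPKM in ein2-5 selfs and 317 and 206 in Col-0 selfs.

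Of 13 genes listed under endosperm domains and breakdown, not all of them markers of endosperm, 9 were tested. Of these, 4 lay above and 1 below without overlap. SCRM, a bHLH factor and partner of ZOU, was the 1 below, at 302 and 263 FPKM in ein2-5 selfs and 344 and 347 in Col-0 selfs (-0.29 ± 0.14, adjusted p = 0.49). ALE1, a subtilase of the endosperm needed for the embryo's cuticle, measured 45.8 and 63.8 FPKM in ein2-5 selfs and 62.1 and 105 in Col-0 selfs. The 4 above were ESF1.2, ESF1.3, FH5 and GSO2, the last 3 named after their values were seen.

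Among 13 seed size regulators 9 were tested, 3 lay above and 0 below, and 0 had an unadjusted p under 0.05, against 1 when any of 3 libraries was left out (higher without ein2-5 self replicate 2 or Col-0 self replicate 2, lower without Col-0 self replicate 1). IKU1, of the HAIKU pathway of endosperm growth, measured 49.9 and 38.4 FPKM in ein2-5 selfs and 30.7 and 34.8 in Col-0 selfs (0.41 ± 0.18, adjusted p = 0.47). CKX2, a cytokinin oxidase downstream of that pathway, measured 19.3 and 7.10 FPKM in ein2-5 selfs and 5.36 and 4.94 in Col-0 selfs. TTG2, a WRKY factor, measured 2.06 and 2.57 FPKM in ein2-5 selfs, against 1.94 and 1.12 in Col-0 selfs, and ARF2, a repressor of seed growth, overlapped at 63.0 and 57.4 in ein2-5 selfs and 56.1 and 80.9 in Col-0 selfs.

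**Figure D5:**
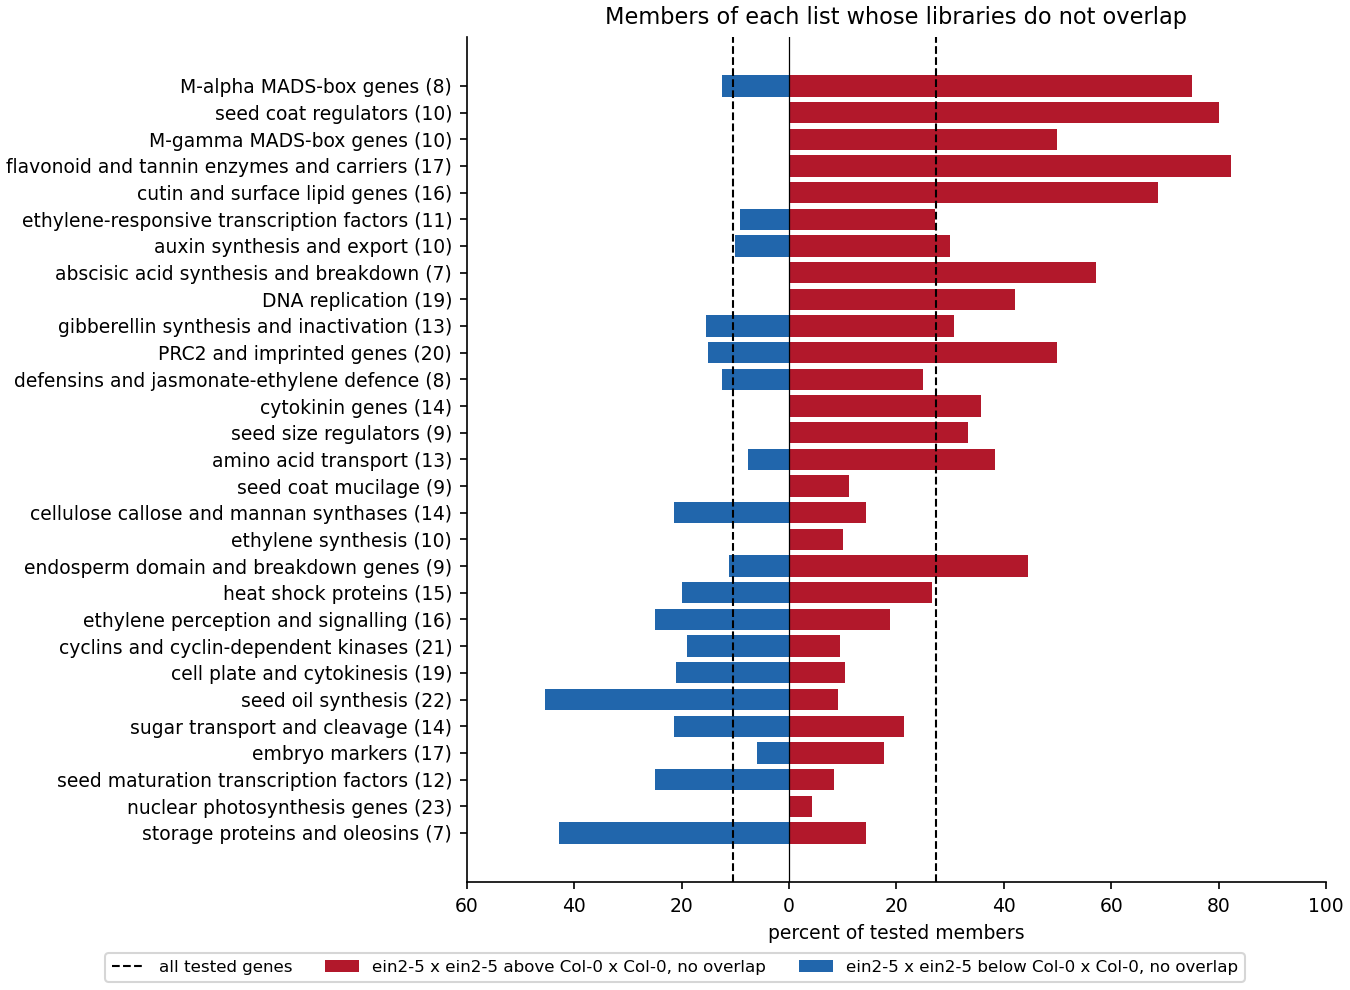
Share of the tested members of each of 29 gene lists (number tested in brackets) whose ein2-5 x ein2-5 libraries both lay above (red, to the right) or both below (blue, to the left) both Col-0 x Col-0 libraries, as percent. Dashed lines give the shares over all tested genes, 27.4% above and 10.4% below; tannin genes reach 82.4% above and oil synthesis genes 45.5% below.

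Of 19 cell plate and cytokinesis genes, all tested, 2 lay above (KEU and HIK) and 4 below (DRP1A, RUK, AUR1 and AUR2), and 0 had an unadjusted p under 0.05. KN, the syntaxin of the cell plate known as KNOLLE, measured 454 and 370 FPKM in ein2-5 selfs and 617 and 453 in Col-0 selfs (-0.37 ± 0.20, adjusted p = 0.56). DRP1A, a dynamin of the cell plate, measured 165 and 164 FPKM in ein2-5 selfs and 225 and 180 in Col-0 selfs (-0.29 ± 0.14), and RUK measured 13.8 and 17.0 in ein2-5 selfs, against 19.7 and 20.7 in Col-0 selfs. The median of the list was -0.14, and 0.02 without Col-0 self replicate 2. Leaving out 1 library gave up to 2 lower members and up to 1 higher member at an unadjusted p under 0.05.

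Of 16 genes for cellulose, callose and mannan synthesis 14 were tested, with 2 above and 3 below without overlap. CSLA7, a mannan synthase needed for embryo growth, measured 5.14 and 4.38 FPKM in ein2-5 selfs and 0 and 1.02 in Col-0 selfs (adjusted p = 0.39). CSLA2, a more abundant mannan synthase, overlapped at 192 and 155 FPKM in ein2-5 selfs and 200 and 129 in Col-0 selfs. CESA2, a cellulose synthase, measured 18.6 and 16.0 FPKM in ein2-5 selfs and 9.82 and 13.8 in Col-0 selfs, and GSL1, a callose synthase, measured 7.59 and 13.4 in ein2-5 selfs, against 13.5 and 14.9 in Col-0 selfs. KOR1 and CESA9 were the other 2 below.

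Cyclins and replication genes leaned in opposite directions by small amounts. Of 21 cyclins and cyclin-dependent kinases, all tested, 17 were lower, with a median of -0.11, and 3 of these had an unadjusted p under 0.05. The 3 became 0 without ein2-5 self replicate 1, and 1 with only the selfed libraries or without a variance trend. CYCB1;4 measured 61.6 and 61.8 FPKM in ein2-5 selfs and 93.9 and 82.4 in Col-0 selfs (-0.50 ± 0.16, adjusted p = 0.39). CYCD3;2 measured 62.7 and 66.7 FPKM in ein2-5 selfs and 80.6 and 83.8 in Col-0 selfs (-0.34 ± 0.12), and CYCA1;1 measured 31.2 and 36.4 in ein2-5 selfs, against 43.3 and 47.3 in Col-0 selfs. CYCB1;2, the most abundant, overlapped. Of 19 DNA replication genes, all tested, 18 were higher and 8 lay above without overlap, but 0 had an unadjusted p under 0.05. ORC2, a subunit of the origin recognition complex, measured 35.8 and 26.4 FPKM in ein2-5 selfs and 15.7 and 26.4 in Col-0 selfs, so the crosses overlapped. MCM7, of the replicative helicase, measured 41.0 and 36.9 FPKM in ein2-5 selfs and 24.7 and 35.6 in Col-0 selfs. The median of the replication list was 0.25 with all libraries, 0.09 without Col-0 self replicate 1 and 0.48 without Col-0 self replicate 2, where 7 members had an unadjusted p under 0.05.

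Genes of seed filling lay below Col-0 selfs more often than genes in general. Of 12 storage protein and oleosin genes 7 were tested, and 3 lay below and 1 (SESA1) above without overlap. OLEO3 was the most abundant, at 326 and 328 FPKM in ein2-5 selfs, 413 and 413 in hybrids on Col-0, 419 and 493 in hybrids on ein2-5, and 570 and 454 in Col-0 selfs (-0.64 ± 0.16, adjusted p = 0.33). The hybrids of OLEO3 all lay above both libraries of ein2-5 selfs. OLEO4 measured 11.4 and 11.1 FPKM in ein2-5 selfs and 23.9 and 20.2 in Col-0 selfs (-0.91 ± 0.33, adjusted p = 0.42). The 2S albumin SESA1 was at 49.9 and 19.4 FPKM in ein2-5 selfs and 12.99 and 17.5 in Col-0 selfs.

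Of 22 oil synthesis genes, all tested, 10 lay below without overlap, 45.5% against 10.4% of all genes, and 2 (ROD1 and PDAT1) above, with a median of -0.15. Differences ran from -0.56 (TAG1) to 0.70 (ROD1) apart from FAE1, the elongase of very long fatty acids in seed oil, at 0.58 and 2.54 FPKM in ein2-5 selfs and 7.66 and 15.1 in Col-0 selfs (-2.32 ± 0.74, adjusted p = 0.39). BCCP2, of acetyl-CoA carboxylase, measured 232 and 223 FPKM in ein2-5 selfs and 304 and 267 in Col-0 selfs (-0.32 ± 0.13). PKP-BETA1, of plastid pyruvate kinase, measured 233 and 199 FPKM in ein2-5 selfs and 272 and 273 in Col-0 selfs, and FAD2, an oleate desaturase and the most abundant member, measured 401 and 354 in ein2-5 selfs, against 528 and 393 in Col-0 selfs. WRI1, the transcription factor of this pathway, overlapped at 208 and 179 FPKM in ein2-5 selfs and 207 and 210 in Col-0 selfs, and was named after its values were seen. Genes at 100 FPKM or more, as many of these are, had a median of -0.09 in general.

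Of 12 maturation transcription factors, all tested, 3 lay below (MYB115, AGL15 and ABI3) and 1 (BZIP53) above without overlap. MYB115 measured 12.6 and 19.4 FPKM in ein2-5 selfs and 26.9 and 29.8 in Col-0 selfs (-0.82 ± 0.27, adjusted p = 0.40). AGL15, a MADS-box factor of embryogenesis, measured 35.6 and 38.3 FPKM in ein2-5 selfs and 46.2 and 61.3 in Col-0 selfs (-0.52 ± 0.18). BZIP53 measured 151 and 140 FPKM in ein2-5 selfs and 126 and 114 in Col-0 selfs, and LEC1, a master regulator of maturation, overlapped at 405 and 330 in ein2-5 selfs, against 453 and 393 in Col-0 selfs. LEC1 is also an embryo marker and the largest part of their sum. Without LEC1, a sum chosen after seeing the data, the other 17 embryo markers overlapped, at 180 and 258 FPKM in ein2-5 selfs, against 202 and 265 in Col-0 selfs.

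Transporters that move food into the seed did not go one way. Of 18 sugar transport and cleavage genes 14 were tested, with 3 above and 3 below without overlap. SWEET15, a sucrose exporter of the seed coat and endosperm, measured 138 and 188 FPKM in ein2-5 selfs, 213 and 220 in hybrids on Col-0, 214 and 238 in hybrids on ein2-5, and 238 and 281 in Col-0 selfs (-0.68 ± 0.18, adjusted p = 0.33). STP13, a hexose carrier, measured 2.78 and 10.7 FPKM in ein2-5 selfs and 0.87 and 1.68 in Col-0 selfs, SWEET4 was listed at 2.07 and 2.58 in ein2-5 selfs, against 0 and 0 in Col-0 selfs, and SUC5, the most abundant, overlapped. STP1 was the third above, and VAC-INV and SWEET12 were the other 2 below.

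Of 16 amino acid transporters 13 were tested, with 5 above and 1 (UMAMIT14) below without overlap. AAP8, which imports amino acids into the young endosperm, had the smallest p of all listed genes, at 12.9 and 12.3 FPKM in ein2-5 selfs, 3.44 and 2.42 in hybrids on Col-0, 6.36 and 3.11 in hybrids on ein2-5, and 0 and 0.49 in Col-0 selfs (adjusted p = 0.23). All 4 hybrid libraries of AAP8 lay between the selfed crosses, a position made more likely by naming it for its small p. AAP5 measured 11.5 and 14.6 FPKM in ein2-5 selfs and 3.21 and 8.31 in Col-0 selfs, AAP2 was listed at 1.04 and 2.28 in ein2-5 selfs, against 0 and 0 in Col-0 selfs, and AAP1, the most abundant, measured 201 and 190 in ein2-5 selfs, against 190 and 163 in Col-0 selfs. CAT6 was the fifth above.

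Hormone genes other than those of ethylene gave single members with small p-values. Of 19 genes of gibberellin synthesis and inactivation 13 were tested, with 4 above and 2 below without overlap. GAMT1, a methyltransferase that inactivates gibberellins in seeds, measured 106 and 86.1 FPKM in ein2-5 selfs and 36.2 and 33.3 in Col-0 selfs (1.43 ± 0.26, adjusted p = 0.30). GA20OX3, a gibberellin 20-oxidase and the most abundant, was below, at 224 and 256 FPKM in ein2-5 selfs and 343 and 373 in Col-0 selfs (-0.58 ± 0.14, adjusted p = 0.33). GA20OX4 was above, at 1.81 and 10.2 FPKM in ein2-5 selfs and 0 and 0.66 in Col-0 selfs, as GA20OX5 was. The 20-oxidases thus did not share a direction, with the more abundant GA20OX3 lower and GA20OX4 and GA20OX5 higher.

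Of 12 abscisic acid genes 7 were tested, with 4 above and 0 below. NCED6, the cleavage enzyme of abscisic acid synthesis in the endosperm, measured 53.6 and 39.9 FPKM in ein2-5 selfs, 32.2 and 26.0 in hybrids on Col-0, 28.6 and 23.4 in hybrids on ein2-5, and 23.5 and 24.7 in Col-0 selfs (0.91 ± 0.21, adjusted p = 0.33). CYP707A1, which breaks abscisic acid down, measured 49.1 and 37.3 FPKM in ein2-5 selfs and 30.6 and 34.5 in Col-0 selfs, and ABA3 measured 4.85 and 4.84 in ein2-5 selfs, against 3.05 and 2.81 in Col-0 selfs. ABA2, the most abundant, overlapped, and ABA1 was the fourth above.

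Of 17 auxin genes 10 were tested, with 3 above and 1 below. TAR1, a tryptophan aminotransferase of auxin synthesis, measured 15.7 and 9.25 FPKM in ein2-5 selfs and 4.93 and 3.78 in Col-0 selfs (1.296 ± 0.53, adjusted p = 0.45), and PIN3, an efflux carrier, was listed at 1.05 and 2.19 in ein2-5 selfs, against 0 and 0 in Col-0 selfs. ABCB19, an auxin exporter, was below, at 51.5 and 62.3 FPKM in ein2-5 selfs and 67.5 and 91.1 in Col-0 selfs. TAA1 was the third above. Of 18 cytokinin genes 14 were tested, with 5 above and 0 below, and ARR6, a response regulator induced by cytokinin, measured 9.86 and 6.16 FPKM in ein2-5 selfs and 2.07 and 3.97 in Col-0 selfs (1.18 ± 0.47, adjusted p = 0.44). CKX6, a cytokinin oxidase, measured 1.84 and 2.58 FPKM in ein2-5 selfs and 0.87 and 0.33 in Col-0 selfs. ARR5 and the most abundant member, CKX3, overlapped.

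Whether the difference between the selfed crosses departs from the sum of the 2 single-parent differences was tested with the interaction of both parents. No gene was called (0% of 19719 genes, lowest adjusted p = 0.42), while 3 were without Col-0 self replicate 1 and 2 without Col-0 self replicate 2, and 662 genes (3.36%) had an unadjusted p under 0.05. This test uses the hybrid libraries together with the selfed ones, so it shares libraries with the comparison above. Of the 142 named genes 24 overlap a gene on the opposite strand, and without stated strand information reads of the pair cannot be told apart.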

How the data were processed

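FPKM values for 34133 genes in 8 libraries were computed and deposited by the authors with TopHat2 2.1.1, SAMtools 1.5, Cufflinks 2.2.1 and the TAIR10 build, per the submitters' processing notes, which give no roles or options; 0 columns were left unused. The TAIR10.1 annotation gave gene names and lengths for 33389 IDs. Genes at 1 FPKM or more in at least 2 libraries were kept (19719), another 11790 were at 0 everywhere, and log2(FPKM + 1) was fitted as 4 cross means over 8 libraries by limma 3.58.1 under R 4.3.3 (linear model, moderated two-sided test with a variance trend, Benjamini-Hochberg adjustment), tested on simulated data. An exact test of 2 against 2 libraries cannot go below p = 0.333. Members and 29 lists (468 of 493 symbols matched) were chosen with earlier results of these data known, so list counts are descriptions without a set test. Named genes are EIN2, called genes, the 12 with the smallest p per direction at a mean of 10 FPKM or more, up to 8 per direction listed in 1 selfed cross only, and of each list the 3 with the smallest p and the most abundant member; other genes were named after their values were seen, among them those that complete a count. The labels state no pairing by replicate number, and none was used in the main fit. Replicate deviations correlated weakly, at 0.01 to 0.14 over the 6 pairs of crosses. Whether libraries of equal number shared a batch was not tested. 1 gene that the rule names is not reported here.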

Additional observations from a re-analysis of the deposited data

How the results depend on the processing

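The number of genes called between ein2-5 selfs and Col-0 selfs, 2 as reported, was 0 with a pseudocount of 0.1, 0 among genes at 10 FPKM or more in 2 libraries, 0 among transcripts of at least 500 nt, 1 with only the 4 selfed libraries, 4 after median-ratio scaling and 11 without a variance trend, and the causes were not tested. AT1G69825 and AT4G36791 were called in 5 of 12 alternatives each. Genes lower at an unadjusted p under 0.05, 421 as reported, were 842 after median-ratio scaling, 1080 after quantile normalization and 218 with only the selfed libraries, and genes higher, 1665 as reported, were 1016 after quantile normalization. The replicate block gave 0 calls, with 1822 genes higher and 617 lower, and the numbers share no stated pairing. Leaving out each selfed library in turn gave 0 to 33 calls, 951 to 2771 genes higher, 127 to 821 lower and 0 to 3 calls in the interaction, and the lone library left was then assumed to vary like the other crosses. Among the named genes, directions turned only in overlapping ones. With 1 library left out this outcome was fixed, because a gene without overlap cannot turn. Under scaling, the difference was -0.0922 (median-ratio) and -0.101 (quantile) for TTG1, -0.0175 and -0.0822 for IRX14, -0.0496 for AGL87 and -0.0115 for CSLA2 (both median-ratio), and -0.0570 for CKX3 (quantile). Over the left-out libraries it ran from -0.21 to 0.34 for AGL87, -0.15 to 0.48 for HDG3, -0.21 to 0.41 for CSLA2, -0.16 to 0.42 for SUC5, -0.26 to 1.99 for ACS7, -0.36 to 0.32 for EOL1, -0.11 to 0.14 for TTG1, -0.13 to 0.61 for SOS5, -0.27 to 0.0549 for CYCB1;2, -0.81 to 1.11 for CKX3, -0.11 to 0.51 for PCNA1, -0.17 to 0.0258 for ABA2, -0.90 to 0.13 for CAB1, -0.10 to 1.07 for ERF11 and -0.42 to 0.10 for ARF2. Depth is unknown, so it cannot be said which low values rest on few fragments.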

Other observations

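Photosynthesis genes of the nucleus were mostly below Col-0 selfs with small differences. All 23 listed were tested, 19 were lower, 0 had an unadjusted p under 0.05, and the median difference was -0.22 as deposited, but 0.003 with 13 genes higher after quantile normalization. CAB1, an antenna protein of photosystem II, measured 866 and 620 FPKM in ein2-5 selfs and 1372 and 672 in Col-0 selfs, and CAB2 measured 427 and 322 in ein2-5 selfs, against 578 and 397 in Col-0 selfs. RBCS3B, a small subunit of Rubisco, was the 1 member without overlap, at 67.2 and 53.4 FPKM in ein2-5 selfs and 28.5 and 50.1 in Col-0 selfs, and RCA, its activase, measured 164 and 113 in ein2-5 selfs, against 118 and 99.97 in Col-0 selfs. CAB and RBCS copies are near-identical, so reads may have been split among them. The high values of CAB1 were those of replicate 1 in both crosses, and without Col-0 self replicate 1 the median of the list was 0.11. Without Col-0 self replicate 2 it was -0.47, with 13 members lower at an unadjusted p under 0.05.

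Heat shock proteins were mixed. Of 15, all tested, 4 lay above and 3 below without overlap. HSC70-1, a constitutive chaperone, measured 57.3 and 90.3 FPKM in ein2-5 selfs and 128 and 120 in Col-0 selfs (-0.78 ± 0.22, adjusted p = 0.35), and BIP1, of the endoplasmic reticulum, measured 175 and 163 in ein2-5 selfs, against 204 and 186 in Col-0 selfs, with reads that may be shared with its copy BIP2. HSP18.2 measured 8.64 and 7.56 FPKM in ein2-5 selfs and 3.26 and 2.503 in Col-0 selfs, and HSP90.1 measured 68.0 and 68.9 in ein2-5 selfs, against 46.7 and 46.1 in Col-0 selfs (0.55 ± 0.21, adjusted p = 0.44). Among 18 defensin and jasmonate-ethylene defence genes 8 were tested. PDF2.3 measured 10.7 and 10.1 FPKM in ein2-5 selfs and 5.06 and 5.83 in Col-0 selfs, PDF2.1 measured 499 and 431 in ein2-5 selfs, against 680 and 539 in Col-0 selfs, and PDF2.2, the most abundant, overlapped at 1051 and 794 in ein2-5 selfs, against 1962 and 921 in Col-0 selfs. Embryo genes were scattered: WOX2 was listed at 1.31 and 0.82 FPKM in ein2-5 selfs and at 0 in both libraries of Col-0 selfs, ATS, known from the integument, at 1.76 and 0.55 in ein2-5 selfs, against 0 and 0 in Col-0 selfs, and CUC1 at 35.1 and 64.4 in ein2-5 selfs, against 47.6 and 96.0 in Col-0 selfs.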
